A study of Acipenser ruthenus with 15 samples.

Results

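The most abundant maternal transcripts of the sterlet egg were 62 of the 42878 assembled transcripts listed (0.145%). They were chosen by level alone, as those whose mean over all 15 libraries reached 600 CPM, the counts of a transcript scaled to a common library size, after TMM scaling, a correction for differences in library composition. The sterlet, Acipenser ruthenus, is a small sturgeon. Each of 3 eggs, numbered 10, 18 and 20 and labelled as oocytes of stage 1, was frozen, sliced and divided along its axis into 5 segments. Section A is at the animal pole, section E at the vegetal pole, and B, C and D lie in that order between them. Every segment of every egg gave 1 library, so n = 3 in each section. No treatment or genotype is named in the labels, and the comparison is between positions in the same egg. The sources used here do not give whether the eggs came from 1 female or more. The p-values therefore cover no more than the spread between these eggs.

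An egg carries a store of RNA and protein made by the mother, which runs the first steps of development until the embryo's own genome is switched on. The animal pole holds the nucleus and the vegetal pole most of the yolk. In frog eggs some maternal RNAs are anchored at the vegetal pole, among them those of the germ plasm that marks future germ cells, and sturgeon eggs, like frog eggs, cleave completely.

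The deposited files list assembly IDs without gene names, and 0 of the IDs matched the table of annotated sterlet genes. The 62 transcripts are therefore called by their rank of mean CPM, rank 1 being the highest, and by ID where one matters. All IDs open with trinitytrinLoc. Of the 62, 42 had a DN number and 20 a GG number, as Trinity names transcripts assembled de novo and with the help of a genome. The DN share was 67.7% among the 62 and 65.4% among all transcripts. Among the 678 transcripts tested below with a mean of 200 to 600 CPM it was 85.7%. Whether the group differs from these was not tested. Each of the 62 came from its own Trinity gene. Ranks 15 and 31 shared the assembly cluster GG_31721, and the ratio of their counts ran from 1.17 to 2.37 over the libraries. In 59 Trinity genes the abundant transcript was the only one listed, and in the other 3 it held at least 96.6% of the counts. Transcript lengths were not analysed here, so a rank orders transcripts by reads and not by molecules. Whether any of the 62 is ribosomal or mitochondrial RNA was not tested. The libraries were depleted of ribosomal RNA with a kit made for human, mouse and rat, per the labels' protocols.

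Library totals ran from 4347026 counts in section C of egg 20 to 14500611 in section D of egg 18. CPM gives a transcript's level relative to the rest of its library, so a lower level at one pole and more of all other RNA there cannot be told apart. Changes along the axis were tested with edgeR's quasi-likelihood test in 1 model of section and egg over 29102 transcripts, with Benjamini-Hochberg adjustment over all of them. A difference is called where the adjusted p was under 0.05.

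The level fell steeply within the group. The rank 1 transcript, trinitytrinLocGG_75266c0g1t1, averaged 29337 CPM over the 15 libraries and the rank 2 transcript, trinitytrinLocGG_45939c0g1t1, averaged 18122 CPM. Rank 3 averaged 13539 CPM, rank 4 averaged 4690 CPM and rank 20 averaged 1043 CPM. Ranks 1 and 2 together held 38.8% of the counts of the 62, and ranks 1 to 3 held 50.5%. Rank 1 had the highest count of any transcript in 14 of the 15 libraries, and in the remaining library, section B of egg 10, rank 3 did. At the lower end, rank 61 (trinitytrinLocGG_18692c3g1t2) averaged 608 CPM and rank 62 (trinitytrinLocDN53222c0g1t4) averaged 603 CPM. Just below the threshold, trinitytrinLocDN54622c1g1t2 averaged 597 CPM and trinitytrinLocDN54642c1g1t1 averaged 592 CPM.

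A high mean did not mean a high level everywhere. Of the 62, 27 reached 600 CPM in all 15 libraries. By the rule, any transcript that does so belongs to the group. The other 35 were under 600 CPM in at least 1 library. For 60 of the 62 there was at least 1 section in which all 3 eggs were at or above 600 CPM. Rank 42 is the extreme case, at rank 17 in its best library and rank 3590 in its worst, while rank 5 stayed between rank 5 and rank 7. Conversely, 101 transcripts outside the group reached 600 CPM in at least 1 library.

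The 62 transcripts took a larger share of the counts toward the vegetal pole. In section A they held 9.18%, 10.3% and 10.1% of the counts in eggs 10, 18 and 20. The shares were 10.0%, 10.5% and 8.36% in section B, and 12.6%, 13.7% and 10.3% in section C. They were 13.0%, 17.8% and 11.9% in section D, and 15.4%, 14.9% and 13.7% in section E. In every egg the share was higher in E than in A, and the values of E and A did not overlap. The 95% Wilson interval of a library's share is at most 0.0286 percentage points to either side. It covers counting error only, as the labels name no molecular identifiers, and is far narrower than the spread between eggs.

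The mean share was 9.86 ± 0.591% in A and 9.61 ± 1.11% in B. It was 12.2 ± 1.74% in section C, and then 14.2 ± 3.12% in D and 14.7 ± 0.844% in E (SD, n = 3 each). The E share minus the A share was 4.81 ± 1.31 percentage points (SD, n = 3 eggs), with a range of 3.6 to 6.21. In D, egg 18 was the highest of all libraries, and the mean of D without that egg was 12.5%. Since the group was chosen by level, the shares are given as a description, without a test.

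Most of that step belonged to 2 transcripts. Ranks 1 and 2 together held 6.76 ± 0.851% of the counts in E and 2.97 ± 0.297% in A, a difference of 3.79 ± 0.964 points (SD, n = 3 eggs). Rank 3 held 1.55 ± 0.175% in E and 1.04 ± 0.334% in A, a difference of 0.508 ± 0.509 points, so its spread was as large as the difference. The other 59 held 6.35 ± 0.218% in E and 5.85 ± 0.468% in A, a difference of 0.505 ± 0.260 points. As a ratio of E to A, ranks 1 and 2 stood at 2.28 and the other 59 at 1.09.

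**Figure D1:**
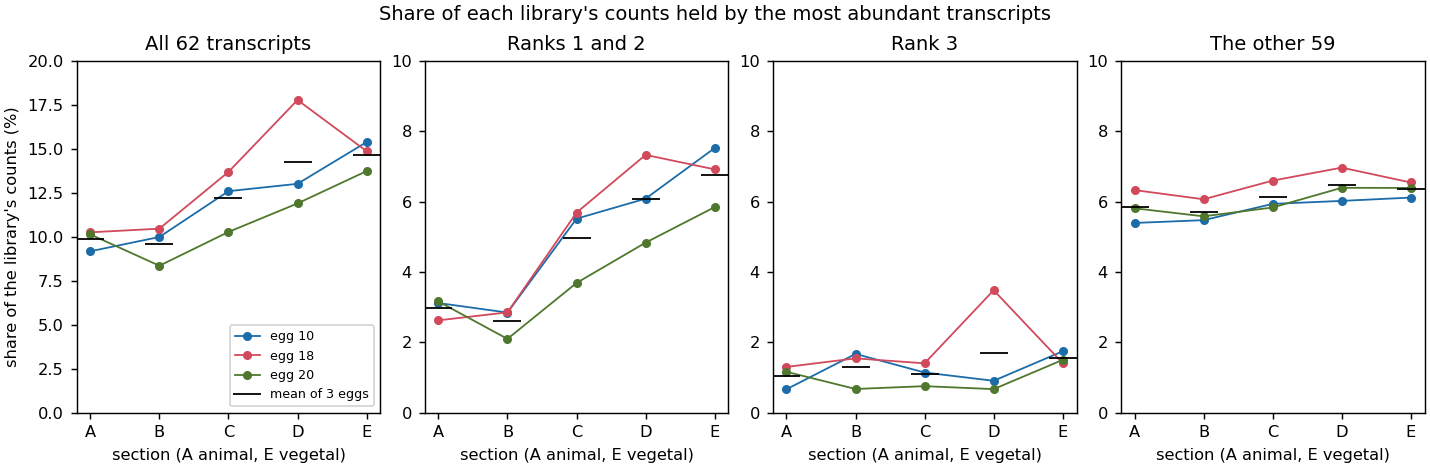
Share of each library's counts, in percent, held by all 62 transcripts, by ranks 1 and 2, by rank 3 and by the other 59, in sections A (animal) to E (vegetal). Points and lines are the 3 eggs and black bars their means. The share of ranks 1 and 2 is 6.76% in E and 2.97% in A, that of the other 59 is 6.35% and 5.85%, and egg 18 stands apart in D for all 62 and for rank 3.

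Rank 1 stood at 45692, 45432 and 39941 CPM in section E of eggs 10, 18 and 20, and at 17737, 17961 and 21971 CPM in section A. The sections did not overlap. The mean was 43688 ± 3248 CPM in E and 19223 ± 2383 CPM in A (SD, n = 3 each), a ratio of 2.27, with a log2 difference of 1.17 ± 0.14 (SE) and an adjusted p of 3.93e-06 in edgeR's quasi-likelihood test.

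Rank 2 stood at 36474, 26256 and 20828 CPM in E, and at 12822, 8333 and 9840 CPM in A. Its sections did not overlap either, and the E to A ratio was 2.70. The log2 difference was 1.40 ± 0.14 (SE) with an edgeR adjusted p of 4.79e-07.

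Both leading transcripts had their lowest section mean in B and not in A. Rank 1 averaged 15320 ± 2933 CPM in B, 30360 ± 6972 in C and 38094 ± 9429 in D. Rank 2 averaged 9355 ± 2800 CPM in B, 18442 ± 6075 in C and 24631 ± 6337 in D. The step of C over B was called for each, at log2 0.98 for rank 1 and 0.97 for rank 2 (edgeR adjusted p = 0.000134 and 0.000151), whereas B over A, D over C and E over D were not. The count ratio of rank 1 to rank 2 ran from 1.2 to 2.23 over the libraries, with a median of 1.77.

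Rank 3 had its highest and its lowest section in different places in different eggs. In eggs 10, 18 and 20 it stood at 6537, 13033 and 11704 CPM in A and at 16068, 14635 and 6314 CPM in B. The values were 11531, 13721 and 7205 CPM in C, 9193, 37148 and 6708 CPM in D, and 19074, 14589 and 15618 CPM in E. E was above A in 3 of 3 eggs, but the highest section was D in egg 18 and E in the other two, and the lowest was A in eggs 10 and 18 and B in egg 20. The edgeR adjusted p was 0.19 for E over A and 0.454 for any section difference.

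Most of the group differed between sections. Any difference between sections, by the F test of edgeR's quasi-likelihood fit, was called for 44 of the 62 (71.0%), beside 31.8% of all tested transcripts. The share of calls grew with abundance over all tested transcripts. The F test called 60.9% of the 678 transcripts with a mean of 200 to 600 CPM and 17.1% of those under 5 CPM. Without the egg as a block, the count of called transcripts in the group was 28. The share of all tested transcripts called in that fit was not taken, so the lower count describes no trait of the group.

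The vegetal pole had more of the called transcripts of the group. In the comparison of E with A, 32 of the 62 were higher in E, beside 17.2% of all tested transcripts, and 15 were higher in A, beside 17.8%. That is 51.6% and 24.2% of the group. In the band of 200 to 600 CPM the shares were 32.2% in each direction. Whether the group differs from that band was not tested. The median log2 difference was 0.34 over the 62, -0.005 over that band and -0.03 over all tested transcripts. Of the 47 called, 46 had the same sign in 3 of 3 eggs, which the call makes likely, as it rests on the same eggs. The exception was rank 14, called higher in A with 1110, 1238 and 964 CPM in E and 1093, 2259 and 1677 CPM in A, where egg 10 had the opposite sign. Of the 15 not called, the log2 differences ran from -0.34 to 0.82.

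The split between the poles depended on the scaling. With libraries scaled to the spike-in line of the count files, 8 of the 62 were higher in E and 21 higher in A. Over all 29102 tested transcripts the counts were 1955 and 10381, and the median log2 difference moved to -0.53. With the factors behind the authors' deposited normalized signal, 10 of the 62 were higher in E and 30 higher in A. Over all tested transcripts the counts were 2164 and 15981, and that median moved to -0.61. With library totals alone the counts were 26 and 18 of the 62, beside 4134 and 6296 of all. Of the calls with the spike-in, 27.6% in the group and 15.8% over all were higher in E. With the deposited factor these were 25% and 11.9%. Under each of the 7 scalings compared, the median of the group was 0.36 to 0.37 above that of all tested transcripts. Of the 62, 41 were above the median of all transcripts under each. A change of scaling moves the E over A difference of every transcript by nearly the same amount. These values could therefore hardly change, and they are no check on the scaling. All 15 called higher in A under TMM were called so under each scaling, though the spike-in and the deposited factor move all differences toward A. Of the 32 called higher in E under TMM, 8 were called so with the spike-in and 10 with the deposited factor, and 3 were called higher in A with the deposited factor.

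**Figure D2:**
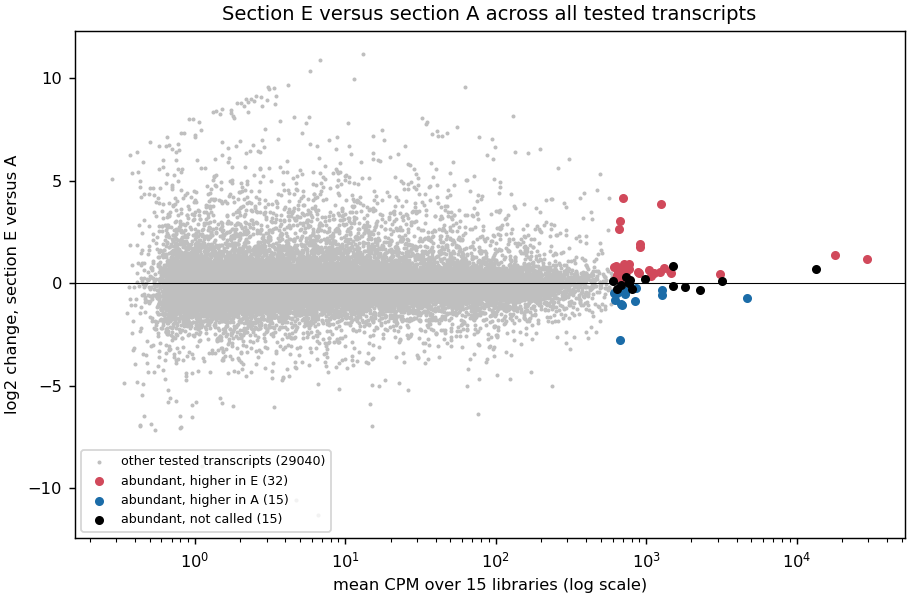
Log2 difference of section E over section A against mean CPM (log scale) for all 29102 tested transcripts. Grey points are the other tested transcripts, red the 32 abundant ones called higher in E, blue the 15 called higher in A and black the 15 not called. The 2 points farthest right are ranks 1 and 2, at 1.17 and 1.40.

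Some of the called differences reached 2-fold. Of the 62, 8 (12.9%) were called and at least 2-fold higher in E, beside 8.16% of all tested transcripts, and 3 (4.84%) were at least 2-fold higher in A, beside 7.28%. Whether these shares differ from the background was not tested. Most called differences were smaller. Of the 32 higher in E, 4 had a log2 difference of at least 2, another 4 of 1 to 2, 15 of 0.5 to 1 and 9 under 0.5. Of the 15 higher in A, 1 was over 2, another 2 were 1 to 2, 5 were 0.5 to 1 and 7 under 0.5.

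The strongest vegetal transcript was rank 42, trinitytrinLocGG_43171c0g1t1, which reached 600 CPM only in C, D and E. It had 1285, 1544 and 1216 CPM in section E of eggs 10, 18 and 20, against 76.4, 72.5 and 74.4 CPM in section A. Between the poles it stood at 301 ± 44.1 CPM in B, 886 ± 171 CPM in C and 924 ± 129 CPM in D (SD, n = 3 each). It was 18.1-fold higher in E, with a log2 difference of 4.16 ± 0.12 (SE) and an edgeR adjusted p of 3.48e-13. E held 38.2% of the sum of its 5 section means and A held 2.1%. Over the sections other than E its mean was under 600 CPM, so it entered the group through section E.

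Rank 16, trinitytrinLocDN55209c0g1t3, followed, with 2798, 1830 and 2671 CPM in E against 195, 142 and 154 CPM in A. It averaged 230 ± 28.6 CPM in B, 1214 ± 269 CPM in C and 2271 ± 364 CPM in D. Its E to A ratio was 14.9 (log2 3.88 ± 0.11 SE, edgeR adjusted p = 2.2e-13). It was low in A and B, the largest step was that of C over B, and D and E overlapped.

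Ranks 49 and 51 were of the same kind. Rank 49 (trinitytrinLocDN54983c2g3t3) averaged 1033 ± 63.2 CPM in E and 127 ± 13.0 CPM in A, 8.10-fold higher in E, and rank 51 averaged 1236 ± 79.1 CPM in E and 199 ± 56.4 CPM in A, 6.21-fold higher in E. Ranks 22 and 23 were 3.80-fold and 3.68-fold higher in E. These 6 and ranks 1 and 2 make up the 8 that were at least 2-fold higher in E. All 8 had the same sign in 3 of 3 eggs, which again a call on the same eggs makes likely.

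At the animal pole 1 transcript stood alone. Rank 50, trinitytrinLocDN55105c0g1t4, had 260, 239 and 298 CPM in section E, against 1462, 2071 and 1916 CPM in section A. It averaged 700 ± 46.0 CPM in B, 314 ± 44.5 CPM in C and 265 ± 16.2 CPM in D, so C, D and E were near one another and A held 54.1% of the sum of the section means. It was 6.84-fold lower in E (log2 -2.77 ± 0.10 SE, edgeR adjusted p = 2.23e-12). Over the sections other than A its mean was under 600 CPM, so it entered the group through section A.

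Rank 43 (trinitytrinLocGG_73948c1g1t3) was next, with 475, 312 and 525 CPM in E and 1065, 768 and 830 CPM in A, 2.03-fold lower in E (log2 -1.05 ± 0.12 SE, edgeR adjusted p = 2.09e-06). Its section means fell at every step along the axis, being 888 ± 157 CPM in A and 849 ± 65.2 CPM in B, then 737 ± 123 CPM in C, and last 568 ± 148 CPM in D and 437 ± 111 CPM in E. Rank 48 was also 2.03-fold lower in E, at 486 ± 58.8 CPM in E and 989 ± 65.0 CPM in A. Rank 4, the most abundant transcript called higher in A, averaged 3725 ± 370 CPM in E and 6329 ± 2093 CPM in A (log2 -0.73, edgeR adjusted p = 0.000464), but in egg 10 it was almost level, with 3960 CPM in E and 4248 CPM in A.

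Together the 32 transcripts called higher in E held 10.3 ± 0.698% of the counts in E and 4.99 ± 0.230% in A. The 15 called higher in A held 1.2 ± 0.0489% in E and 2.11 ± 0.243% in A. The 15 not called, rank 3 among them, held 3.21 ± 0.178% in E and 2.76 ± 0.476% in A. These sums follow from the calls and describe their weight only. Of the 27 transcripts at or above 600 CPM in all libraries, 13 were higher in E, 5 higher in A and 9 not called, with log2 differences from -0.86 to 1.40. The difference itself helps to decide which transcripts these are, so their range is a description only.

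**Figure D3:**
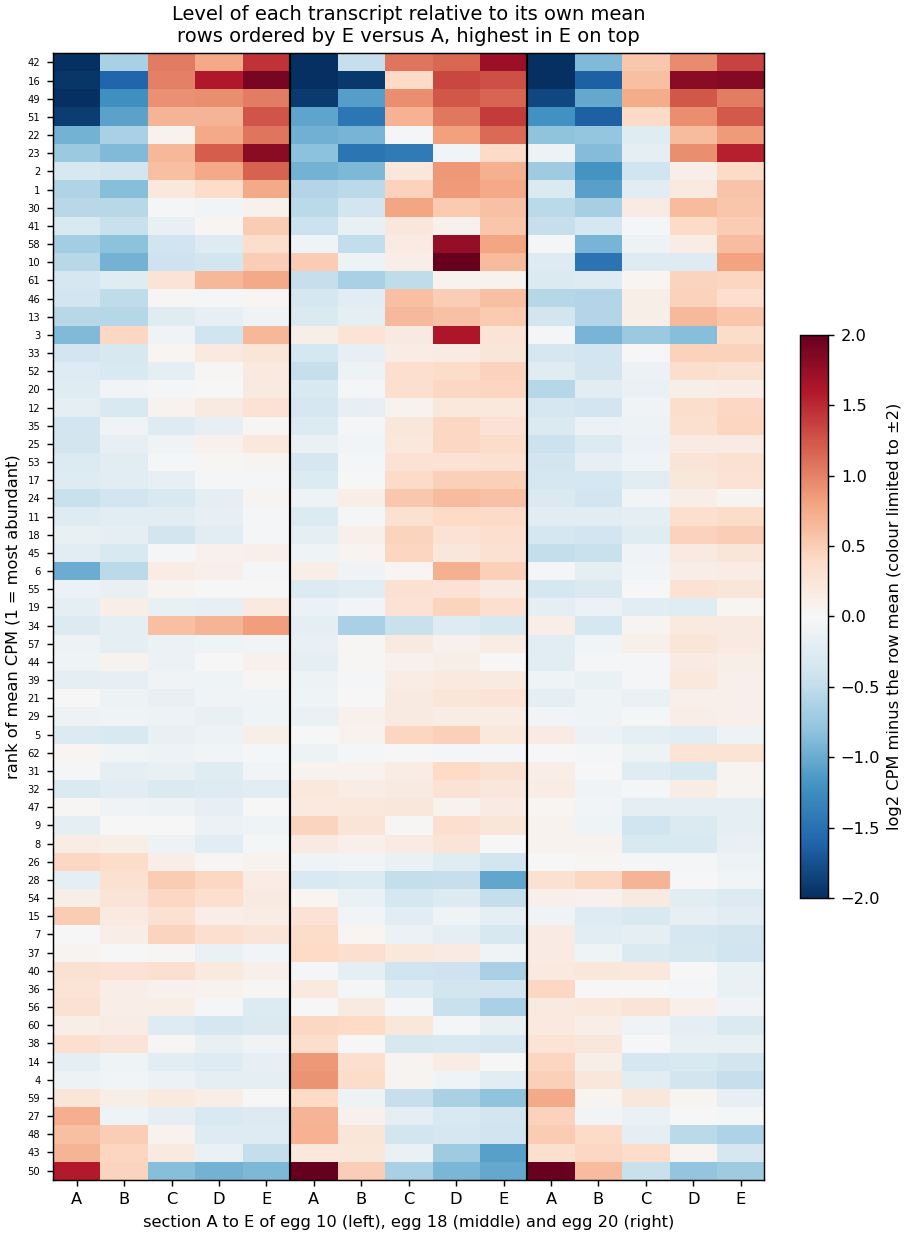
Level of each of the 62 transcripts (rows, labelled by rank and ordered by E over A) in sections A to E of eggs 10, 18 and 20, as log2 CPM minus the row mean. Red is above and blue below the row's mean, with colour limited to 2 either way. Ranks 42, 16, 49 and 51 on top are low in A and B and high from C on, rank 50 at the bottom is high in A, and in the middle egg (18) ranks 3, 10 and 58 are high in section D.

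By highest section mean under TMM, 18 of the 62 peaked in A and 1 in B, while 2 peaked in C, and 11 peaked in D and 30 in E. From A to E that is 29.0, 1.61, 3.23, 17.7 and 48.4% of the group. In the band of 200 to 600 CPM the shares were 30.2, 16.5, 7.96, 11.5 and 33.8%. Whether the group differs from that band in its peaks was not tested. Scaled by the spike-in, 9 of the 62 peaked in A, with 1 in D and 10 in E. Scaled by the deposited factor, 4 peaked in A, with 6 in D and 2 in E. The rest, most of the 62 under either of these scalings, peaked in B or C. Under TMM, of those with their peak in E, 23 were called by the F test, and 9 peaked in E in each of the 3 eggs. Of the 18 with their peak in A, 13 were called and 8 peaked there in each egg. None of the 11 with their peak in D did so in all 3 eggs. Calls by peak and agreement on the peak were not counted over all tested transcripts or at 200 to 600 CPM. They are a description only, and the F test called 71.0% of the whole group. The line between D and E is soft, as leaving out section D of egg 10 gives 30 with the peak in D and 11 in E, and leaving out section E of egg 18 gives 23 in D and 17 in E. Over all 62, the 3 eggs had the same highest section for 17, 2 eggs did for 31, and each egg had its own for 14.

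Under TMM, the section means rose at every step from A to E for 22 of the 62 and fell at every step for 9. These counts were not taken under another scaling. For 33 the highest section mean was less than 1.5 times the lowest, for 16 it was 1.5 to 2 times, for 7 it was 2 to 4 times and for 6 at least 4 times. Those 6 are ranks 16, 23, 42, 49, 50 and 51. The ratio was under 1.5 for 53.2% of the group, beside 66.5% of the band of 200 to 600 CPM, a difference that was not tested. Scaled by the spike-in it was under 1.5 for 14 of the 62, and by the deposited factor for 16. A small range did not mean that no difference was called, as 16 of the 33 passed the F test. That count was not taken over all tested transcripts or in the band.

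The most even transcript was rank 32, trinitytrinLocDN51676c0g1t1, whose highest section mean was 1.08 times the lowest. It averaged 781 ± 139 CPM in A and 741 ± 99.6 CPM in B, then 742 ± 120 CPM in C, and 802 ± 148 CPM in D and 776 ± 118 CPM in E. Its eggs differed more than its sections, with a mean over the sections of 637 CPM in egg 10, 881 CPM in egg 18 and 787 CPM in egg 20. Rank 62 was next, with a ratio of 1.11, 585 CPM in egg 10, 585 CPM in egg 18 and 639 CPM in egg 20.

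Between neighbouring sections, the step of C over B had the most calls under TMM, but not under every scaling. With the spike-in, 37 were called for D over C and 8 for C over B, and with the deposited factor 40 were called for D over C and 33 for B over A. A change of scaling moves a step of every transcript by nearly the same amount. The share of all tested transcripts called at these steps was not taken under those scalings. These counts therefore describe no trait of the group. Under TMM, 15 of the 62 were higher in C, beside 5.39% of all tested transcripts, and 3 were higher in B, beside 3.31%. For B over A, 3 were higher in B, beside 0.715%, and 2 were higher in A, beside 2.65%. Those counts sum to 5, and the sum was 12 without egg 10 and 13 without section A of egg 10. The share of all tested transcripts was not taken in those fits. For D over C, 4 were higher in D, beside 1.99%, and 0 higher in C, beside 0.471%. For E over D, 1 was higher in E, beside 0.412%, and 0 higher in D, beside 0.0103%. At an unadjusted p under 0.05 in either direction, 28 of the 62 passed for C over B and 18 for B over A. The counts were 18 for D over C and 6 for E over D. Over all 29102 tested transcripts they were 6129, 3124, 3603 and 2243 in the same order of steps. Whether one step differed from another was not tested, and neighbouring steps share a section.

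At the step of B over A, rank 42 was 4.05-fold higher in B (log2 2.0 ± 0.12 SE) and rank 49 was 1.78-fold higher (log2 0.83 ± 0.09 SE), with edgeR adjusted p-values of 1.66e-07 and 2.41e-05. Rank 16 was the remaining one higher in B, at 1.41-fold. Rank 50 was 2.59-fold lower in B (log2 -1.37 ± 0.10 SE) and rank 27, trinitytrinLocDN55139c0g1t1, was 1.57-fold lower (log2 -0.65 ± 0.10 SE), with edgeR adjusted p-values of 5.75e-07 and 0.000747. Rank 27 had 774, 873 and 794 CPM in B against 1367, 1322 and 1139 CPM in A, without overlap. It then stayed between 706 and 732 CPM in the means of C, D and E.

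At the step of C over B, rank 16 was 5.27-fold higher in C (log2 2.39 ± 0.11 SE) and rank 49 was 3.93-fold higher (log2 1.98 ± 0.09 SE), with edgeR adjusted p-values of 3.42e-10 and 5.52e-10. Rank 51 was 3.90-fold and rank 42 was 2.94-fold higher in C. Of those higher in B, rank 50 was 2.23-fold lower in C (log2 -1.17 ± 0.10 SE) and rank 48, trinitytrinLocDN55026c0g1t1, was 1.44-fold lower (log2 -0.53 ± 0.09 SE), with edgeR adjusted p-values of 3.27e-07 and 0.00123. Rank 48 had 685, 504 and 568 CPM in C, against 910, 770 and 845 CPM in B.

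At the step of D over C, rank 16 was 1.87-fold higher in D (log2 0.91 ± 0.10 SE, edgeR adjusted p = 5.18e-05) and rank 22 was 1.74-fold higher (log2 0.80). Rank 23, trinitytrinLocDN55343c2g2t2, was 1.83-fold higher (log2 0.95 ± 0.24 SE, edgeR adjusted p = 0.044), with 1632, 678 and 1341 CPM in D and 1118, 263 and 614 CPM in C. That call was lost in 11 of 18 fits with an egg or a library left out (edgeR adjusted p = 0.0535 to 0.539 in those), namely without egg 18 or 20, or without 1 library of D or E of any egg, of C of egg 18 or 20 or of B of egg 20. The remaining one was rank 61, at 1.36-fold. At the step of E over D the single call was rank 42, 1.46-fold higher in E (log2 0.54 ± 0.11 SE, edgeR adjusted p = 0.0363), and it was lost in 14 of the 18 such fits (edgeR adjusted p = 0.0558 to 0.631 in those). It was kept without A of egg 10 or 18, without C of egg 18 and without D of egg 20. Without egg 10 the count for D over C was 7, and it was 2 without egg 18, egg 20 or any of C and D of these eggs. With the egg left out as a block, 9 of the 62 were called for C over B, 1 for D over C and 0 for E over D. No share of all tested transcripts was taken in any of these fits, so the counts describe no trait of the group.

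The levels of the 3 eggs were close for most of the group. Over the 62 transcripts and 5 sections the median coefficient of variation (CV) between eggs was 13.2%, and by section the medians were 9.83% in A and 11% in B, then 17.0% in C, and 17.4% in D and 12.8% in E. The largest CV was 102%, for rank 10 in section D. The log2 CPM of the 62 correlated between eggs of a section with a Pearson's r of 0.897 to 0.985, as a description over 62 transcripts that share their libraries. Without ranks 1 to 3, which widen the range of levels, r was 0.740 to 0.979, and the lowest values were those of eggs 10 and 18 in C and D.

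The direction of the E over A difference repeated between eggs for most of the group. The peak repeated less often, as all 3 eggs shared it for 17 of the 62 and no 2 eggs did for 14. The E over A difference within an egg was positive in 3 of 3 eggs for 35 of the 62, negative in 3 of 3 for 16 and of mixed sign for 11. Eggs 18 and 20 had the same sign for 58, eggs 10 and 18 for 53, and eggs 10 and 20 for 53. Pearson's r of that difference over the 62 was 0.971 between eggs 18 and 20, 0.909 between eggs 10 and 18 and 0.915 between eggs 10 and 20, again as a description.

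**Figure D4:**
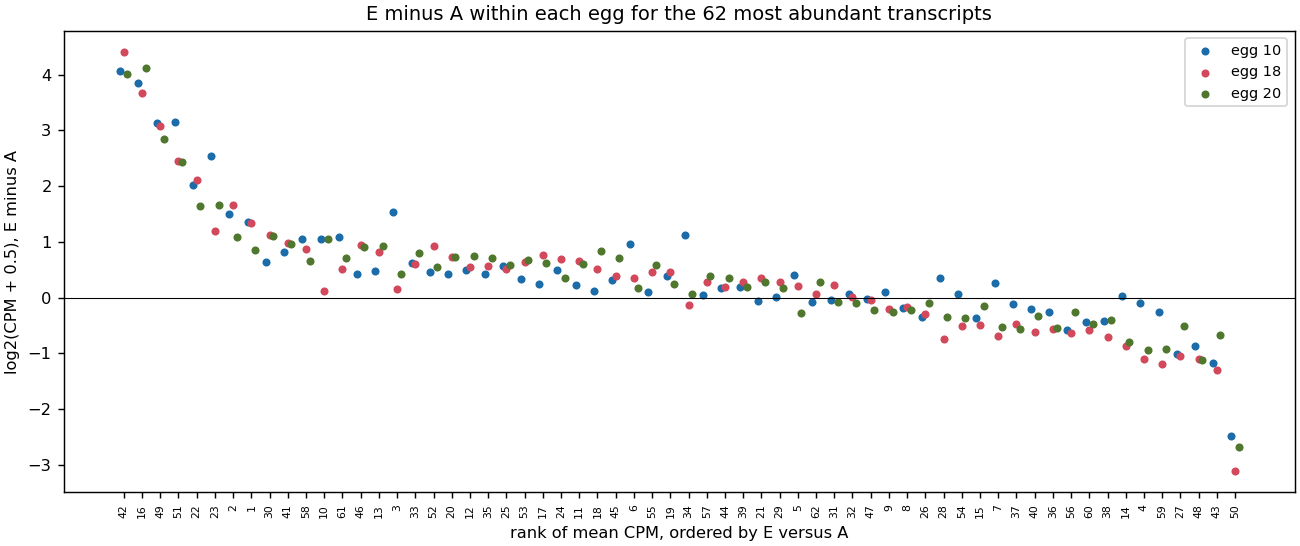
Log2 of CPM plus 0.5 in section E minus the same in section A, within each of the 3 eggs (colours), for the 62 transcripts ordered by the fitted difference. The points of the 3 eggs are all above 0 for 35 transcripts and all below for 16, and of mixed sign for 11.

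The eggs also differed in level. By the egg F test of edgeR's quasi-likelihood fit, 46 of the 62 (74.2%) differed between eggs, beside 41.4% of all tested transcripts. These calls also grew with abundance, at 29.6% of the transcripts under 5 CPM and 56.2% of those at 200 to 600 CPM. Both F tests called 33, the section test alone called 11, the egg test alone called 13 and neither called 5. This overlap was not counted over all tested transcripts or at 200 to 600 CPM, so it is a description only. The ratio of the highest to the lowest egg mean had a median of 1.27, and that of the highest to the lowest section mean a median of 1.47. For 18 of the 62 the egg ratio was the larger of the 2, and for 9 it was at least 1.5.

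Egg 18 stood apart from the other two. It had the highest egg mean for 38 of the 62, while egg 10 had the lowest for 31. With egg 18 left out, 9 of the 62 were called between eggs 10 and 20, beside 19.5% of all tested transcripts. With egg 10 left out 33 were called, beside 12.6%, and with egg 20 left out 45 were called, beside 38.4%. The median CV between eggs was 8.38% without egg 18. Over all tested transcripts, however, the fewest were called without egg 10. The E over A differences of the 62 were also closest between eggs 18 and 20, with a Pearson's r of 0.971.

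The largest egg ratios among the called belonged to ranks 23 and 10, at 2.38 and 2.24. Rank 23 averaged 1203 CPM over the sections in egg 10, 505 CPM in egg 18 and 1013 CPM in egg 20, so egg 18 was the low one. It had 2458, 924 and 2065 CPM in E, against 424, 402 and 656 CPM in A, so the eggs were closer in A than in E. Rank 10, trinitytrinLocGG_97346c0g1t1, averaged 1043 CPM in egg 10, 2331 CPM in egg 18 and 1163 CPM in egg 20, with egg 18 the high one.

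The departures of egg 18 were mostly in C and D. In section C, 13 of the 62 were at least 1.5-fold away from the mean of the other eggs, 6 above it and 7 below, and in section D the counts were 13, 8 above and 5 below. In sections A, B and E they were 4, 2 and 6. Egg 20 was at least 1.5-fold away from egg 10 for 6 in A, 2 in B, 5 each in C and D, and 4 in E. There 1 egg is set against 1 other and not against a mean, so the counts are not strictly alike. Ranks 23, 28, 34 and 59 were below in each of C, D and E, and ranks 3, 5 and 24 were above in both C and D.

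Section D of egg 18 held an excess of 3 of the 62, ranks 3, 10 and 58, chosen after their values were seen. Rank 3, trinitytrinLocGG_62056c2g1t1, had 37148 CPM there and 1.95 times its next highest library. Rank 10 had 5342 CPM there, against 979 CPM in D of egg 10 and 1054 CPM in D of egg 20, and 2.43 times its next highest library. Rank 58, trinitytrinLocDN44688c0g2t1, had 1887 CPM there, against 466 and 619 CPM in D of eggs 10 and 20, and 1.96 times its next. Among all tested transcripts with a mean of at least 5 CPM, 4 exceeded every other library by at least 1.5-fold in that library, these 3 and 1 at 13.3 CPM on average. They held 4.16% of its counts. In the other 14 libraries 0 of the 62 did so. Rank 58, at 633 CPM on average, had a mean under 600 CPM over these 14. It therefore entered the group through the library of its excess, and the count of 3 of the 62 is partly set by the rule. Section D of egg 18 was also the deepest library, and whether depth has a part in the excess was not tested.

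**Figure D5:**
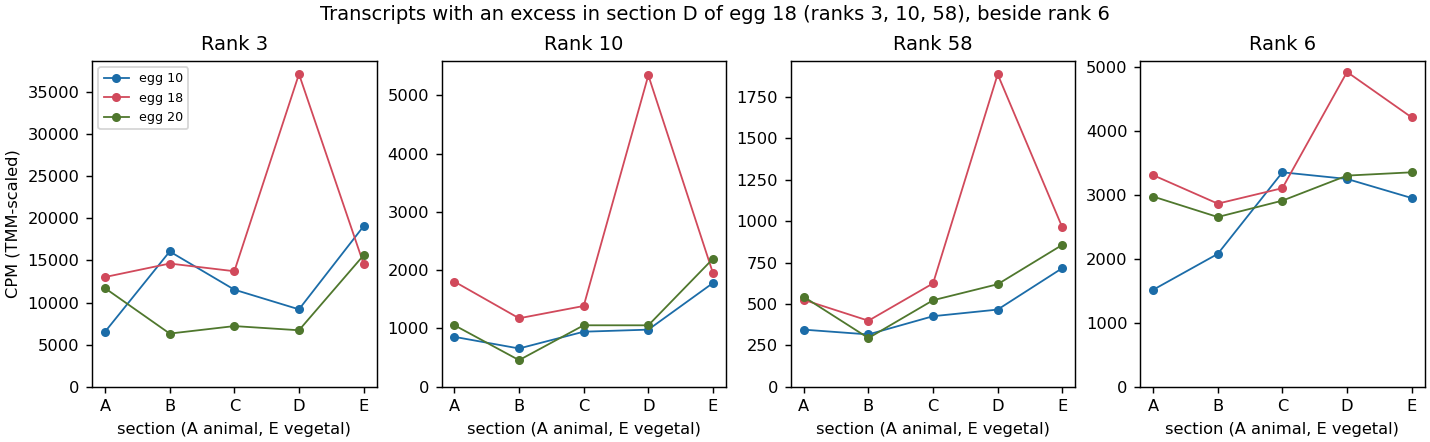
TMM-scaled CPM of ranks 3, 10 and 58, and of rank 6 for comparison, in sections A to E of the 3 eggs (lines). In section D of egg 18 rank 3 reaches 37148 CPM, rank 10 reaches 5342 CPM, rank 58 reaches 1887 CPM and rank 6 reaches 4917 CPM.

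Rank 6 in the same library stood at 4917 CPM, 1.17 times its next highest library. It was one of the 8 that were at least 1.5-fold above the mean of the other eggs in D of egg 18. Apart from that library, ranks 10 and 58 had their highest value of each egg in section E. Rank 58 averaged 845 ± 123 CPM in E and 471 ± 109 CPM in A, higher in E in 3 of 3 eggs (log2 0.85 ± 0.25 SE, edgeR adjusted p = 0.0122). Rank 10 averaged 1974 ± 209 CPM in E and 1238 ± 499.6 CPM in A, which was not called (log2 0.82 ± 0.32 SE, edgeR adjusted p = 0.0604).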

How the data were processed

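RNA of 15 egg segments (3 eggs, 5 sections) was sequenced from strand-specific libraries, per the labels' protocols. The authors deposited whole-number counts per assembled transcript and a normalized signal, and that deposited signal equals the count divided by 1 factor per library. Trimmomatic, STAR 2.5.2b, DESeq2 and kallisto are listed per the submitters' processing notes. The sources used here do not give the assembly or the role of each tool.

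The spike-in line, 0.0115 to 0.0235% of the counts, was left out of library sizes and tests. Levels are TMM-scaled CPM over all 42878 transcripts (edgeR 4.0.16 in R 4.3.3). The group is those with a mean of at least 600 CPM. All members passed edgeR's filterByExpr, which kept 29102 transcripts. Members and lists were chosen with earlier results of these data known. The model held section and egg as terms over all libraries (glmQLFit and glmQLFTest, 8 residual degrees of freedom, Benjamini-Hochberg adjustment, threshold 0.05) and was tested on simulated data. Fold changes are ratios of section means in CPM, and log2 differences are edgeR's. The SE of a log2 difference was derived from the test, as its absolute value divided by the square root of the quasi-likelihood F statistic. Log2 of CPM plus 0.5 was used within eggs.

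The egg is a block because the 5 sections of an egg were cut from it. Deviations from the section means correlated at 0.264 to 0.743 within eggs and at -0.614 to 0.310 between eggs. Libraries of a section differed by a chi-square of 4.77 to 27.2 per degree of freedom, so none is a repeat of another.

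Named transcripts are the 2 most abundant, up to 2 per direction of each comparison with the largest called change of the same sign in 3 eggs, the 2 most even, the 2 with the largest called egg ratio and the 2 on each side of the threshold. Ranks 3 and 58 were added after their values were seen. The gene lists and cell type markers drawn up could not be applied without gene names, and lengths, sequences and positions were not analysed here. Alternatives were other scalings (DESeq2 1.42.0 size factors, totals, the spike-in, the deposited factor, TMM without the group), other filters, DESeq2's test, a robust fit, no egg block, Trinity gene sums, other thresholds and each library or egg left out. TMM over tested transcripts only was added after seeing the data.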

Additional observations from a re-analysis of the deposited data

Results flagged for a closer look

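The spike-in line lies outside the transcripts compared. Its TMM-scaled level was 139 ± 25.2 CPM in A, 119 ± 10.5 CPM in B and 147 ± 19.1 CPM in C, then 229 ± 21.4 CPM in D and 200.0 ± 36.5 CPM in E (SD, n = 3 each). The highest section mean was that of D, and that of B was below that of A.

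The factor behind the authors' deposited normalized signal, set against the TMM library size, had a mean in E that was 1.5 times its mean in A. The means were 0.936 in A and 0.763 in B, then 0.871 in C, and 1.15 in D and 1.40 in E. The cause was not tested for either quantity.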

How the results depend on the processing

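Of the named transcripts' changes none reversed, and the calls lost were those of ranks 23, 16 and 42 at D over C and E over D and of rank 27 at B over A under spike-in scaling. The cause of the changes below was not tested, and CPM limits every level to a share of its library. The counts of calls in this section have no share over all tested transcripts beside them. With library totals, 17 of the 62 peaked in D and 15 in E. With the spike-in, 9 peaked in A, 1 in D and 10 in E, 14 were even, the median CV was 18.3%, and 12 were called between eggs, 29 for E over A (8 higher in E), 3 for B over A, 8 for C over B and 37 for D over C. With the deposited factor, 4 peaked in A, 6 in D and 2 in E, 16 were even, 10 were higher in E and 30 in A, and 33 were called for B over A, 40 for D over C and 21 for E over D. With the spike-in and with the deposited factor, the rest, most of the 62, peaked in B or C. With TMM over tested transcripts only, added after seeing the data, 17 peaked in D. The count for E over D was 0 with totals, the spike-in, TMM without the group and TMM over tested transcripts, and without the replicate block. Without the replicate block 28 were called between sections, 9 for C over B and 1 for D over C.

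A threshold of 400 CPM gave 166 transcripts with shares of 14.8, 14.53, 17.2, 19.2 and 19.5% in A to E. Of these 49 peaked in A, 27 in D and 64 in E, 93 were even, 117 were called between sections, 105 between eggs, 123 for E over A (71 higher in E, 52 in A), 16 for B over A, 54 for C over B and 21 for D over C. A threshold of 1000 CPM gave 20 with shares of 7.0, 6.79, 9.09, 11 and 11.4%. Of these 6 peaked in A, 5 in D and 9 in E, 9 were even, 13 were called between sections, 17 between eggs, 14 for E over A (11 and 3), 1 for B over A, 5 for C over B, 1 for D over C and 0 for E over D. Requiring 600 CPM in every library gave 27.

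With an egg or a library left out, the group held 60 to 63 transcripts, and calls ran from 31 to 52 between sections, 9 to 52 between eggs (9 without egg 18), 39 to 51 for E over A, 4 to 13 for B over A (13 without section A of egg 10), 12 to 24 for C over B, 2 to 7 for D over C and 0 to 1 for E over D. The median CV ran from 8.38 to 14.8%, the even from 25 to 38, those peaking in D from 7 to 30 and in E from 11 to 32.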

Other observations

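A section mean of at least 600 CPM was reached by 60 transcripts whose mean over all libraries was lower. Of these, 24 had their highest mean in A and 4 in B, while 2 had it in C, 6 in D and 24 in E. Counting all transcripts, 68 reached 600 CPM in the mean of A, and the numbers for B, C, D and E were 56, 64, 75 and 85. Of the 62, 43 did so in A and 45 in B, 56 each did in C and D, and 55 did in E. Under TMM, section E had the most transcripts at that level and section B the fewest, an order that was not examined under another scaling. Outside the group, 30 reached it in E and 25 in A.

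The counts of the mean library were spread over many transcripts. The 410 most abundant transcripts held 25% of them and the 1871 most abundant held 50%, while the 62 held 12.1% on average over the libraries.

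Transcripts at least 1.5-fold above every other library, with a mean of at least 5 CPM, numbered 49 in section E of egg 10 and 34 in section A of egg 20, and 0 to 15 in each other library. They held 0.375% of the counts in the first and 0.305% in the second, while the 4 in section D of egg 18 held 4.16%.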
